A study of Mus musculus with 6 samples.

Results

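The genes followed here belong to the meninges and to the collagen matrix around brain vessels, and were read from RNA-seq libraries of the mouse cerebrum. They were Col1a1, Col1a2, Col3a1, Dcn, Lum, Ogn, Slc6a13, Aldh1a2, Ptgds and Igfbp2. These 10 genes were chosen by symbol, and each was found among the 38087 genes of the deposited table. The study compared 3 wild-type (WT) mice with 3 mice heterozygous for Shugoshin-1 (Sgo1-/+), a protein that protects chromosome cohesion during mitosis, to ask which transcripts accompany the brain pathology of the Sgo1-/+ mouse. All 6 mice had the C57BL6 background, were kept without treatment to 24 months and gave 1 library each, from cerebrum with cortex and hippocampus but without olfactory bulb, cerebellum and medulla. The Sgo1 allele is inherited, so that no cell type of these mice is spared. The males were WT replicate 1 and Sgo1-/+ replicate 2, with 4 females besides. The WT libraries came from sequencing run 258 and the Sgo1-/+ libraries from run 259, so genotype and run cannot be told apart.

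The meninges are the connective tissue sheets that cover the brain, and their fibroblasts follow larger vessels into the tissue. These cells make the fibrillar collagens and the small leucine-rich proteoglycans that bind them, whereas neurons and glia make little of either. The arachnoid layer also forms a barrier between blood and cerebrospinal fluid, with its own transporters and secreted enzymes. Retinoic acid made by meningeal cells is a signal to the developing cortex.

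In all 10 genes the mean was lower in Sgo1-/+ than in WT, at 0.486 to 0.732 times the WT mean, but 0 of the 10 differences passed the test. Every one of the 10 genes had its lowest value in Sgo1-/+ replicate 2, while Sgo1-/+ replicate 1 lay above the WT mean for Ptgds, Slc6a13, Ogn and Dcn. A normalized count is the estimated count of reads of a gene, divided by a scale factor for library size (TMM, the trimmed mean of M-values of edgeR), and values are listed in the order of replicates 1, 2 and 3. In whole-tissue RNA, fewer meningeal cells in the piece and less RNA per cell cannot be told apart.

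The libraries held 11123917 to 12505561 estimated counts in all, and the counting error was widest for Col3a1, the lowest gene, with 10.1 to 28.2 normalized counts. The targeted gene Sgo1 had estimated counts of 0, 7 and 0 among WT, against 4, 2 and 0 among Sgo1-/+, so a reduction was not detectable at this depth. WT replicate 1 stood apart, with a mean Pearson's r of 0.935 across genes with the other libraries against 0.967 to 0.970 for the rest, and 15 genes of the cerebellum and brain stem summed to 1750.2 CPM (counts scaled to the same library total) there, against 57.2 to 128 elsewhere. Those regions were to be left out of the dissection, and so was the olfactory bulb, of which 10 genes summed to 115 to 458 CPM, with values given beside the other cell types.

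The sequences before the start sites are shown for Ptgds, Slc6a13, Aldh1a2 and Ogn, which had similar profiles over the libraries, and for Col1a2 and Igfbp2, which departed from it. RefSeq on GRCm38.p6 gave 7 of the 10 genes a start site, which for Col1a2, Ptgds and Slc6a13 lies inside the gene as the deposited table bounds it. The stretches are the 150 bases directly before it, for Ptgds (chr2:25469750-25469899, minus strand), Slc6a13 (chr6:121300138-121300287, plus strand), Aldh1a2 (chr9:71215639-71215788, plus strand), Ogn (chr13:49607865-49608014, plus strand), Col1a2 (chr6:4505468-4505617, plus strand) and Igfbp2 (chr1:72824330-72824479, plus strand). They run 5′ to 3′ on the strand of the gene, and capitals mark matches on either strand to the TATA box (TATAAA), the CCAAT box (CCAAT) and the GC box (GGGCGG).
Ptgds: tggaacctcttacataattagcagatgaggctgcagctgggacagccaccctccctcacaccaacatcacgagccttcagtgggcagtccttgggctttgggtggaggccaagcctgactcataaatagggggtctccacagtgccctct
Slc6a13: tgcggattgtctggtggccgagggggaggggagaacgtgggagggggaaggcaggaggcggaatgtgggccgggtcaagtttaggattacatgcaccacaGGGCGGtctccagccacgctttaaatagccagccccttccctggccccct
Aldh1a2: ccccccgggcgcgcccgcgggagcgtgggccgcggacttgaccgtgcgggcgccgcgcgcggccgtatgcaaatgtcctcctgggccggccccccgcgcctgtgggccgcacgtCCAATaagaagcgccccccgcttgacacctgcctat
Ogn: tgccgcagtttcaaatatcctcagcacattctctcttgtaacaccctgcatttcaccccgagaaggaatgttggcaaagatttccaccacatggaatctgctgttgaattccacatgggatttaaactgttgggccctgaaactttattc
Col1a2: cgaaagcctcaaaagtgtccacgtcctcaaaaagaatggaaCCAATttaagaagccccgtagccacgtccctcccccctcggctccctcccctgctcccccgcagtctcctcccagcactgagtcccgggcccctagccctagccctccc
Igfbp2: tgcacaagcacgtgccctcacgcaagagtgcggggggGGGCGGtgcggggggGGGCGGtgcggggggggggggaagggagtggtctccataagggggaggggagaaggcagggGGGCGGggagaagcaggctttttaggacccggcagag
The 7 promoters were searched over 250 bases before the start. The letters of the TATA box occurred in those of Col3a1 and Ogn, where 12.4% of 32851 promoters hold them. The match of Col3a1 began at base -117 relative to the start site, and those of Ogn at -229 and -227. Whether these matches act as TATA boxes was not tested. The CCAAT box occurred in Aldh1a2 and Col1a2 (33.8% of all promoters) and the GC box in Col1a2, Igfbp2 and Slc6a13 (32.7%). The 2 matches of Ogn overlapped on opposite strands, and they, the GC boxes of Col1a2 and 1 GC box of Slc6a13 lay upstream of the bases shown. No motif was common to Ptgds, Slc6a13, Aldh1a2 and Ogn. The share of G and C in the 150 bases ran from 37.3% in Col3a1 and 44% in Ogn to 72% in Igfbp2 and 76% in Aldh1a2.

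Ptgds makes lipocalin-type prostaglandin D synthase, an enzyme and carrier protein secreted into the cerebrospinal fluid by arachnoid cells, choroid plexus and oligodendrocytes. It lies on chromosome 2 of mm10 from 25466709 to 25470046 (ENSMUSG00000015090). Normalized counts of Ptgds were 12973, 14116 and 7805 among WT, against 13543, 3284 and 4281 among Sgo1-/+. Sgo1-/+ replicate 1 fell among the WT libraries, and the other two Sgo1-/+ libraries lay below all of them. The mean was 11631 ± 3363 for WT against 7036 ± 5658 for Sgo1-/+ (SD, n = 3 each), a log2 fold change of -0.73 (SE 0.545). By edgeR's quasi-likelihood test the unadjusted p was 0.226, and 0.9999 after Benjamini-Hochberg adjustment over the 16337 genes tested. Without Sgo1-/+ replicate 1 the log2 fold change was -1.62 (unadjusted p = 0.00243, adjusted p = 0.9998 in edgeR). It was -0.39 without Sgo1-/+ replicate 2 (unadjusted p = 0.481 in edgeR) and -0.47 without Sgo1-/+ replicate 3 (unadjusted p = 0.469 in edgeR).

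Slc6a13, a GABA and taurine transporter of leptomeningeal cells, lies on chromosome 6 from 121300227 to 121337733 (ENSMUSG00000030108). The WT libraries were close together, with 138, 154 and 138 normalized counts. Among Sgo1-/+ libraries the range was wider, with 179, 37.5 and 63.4, so that the highest and the lowest value of all 6 libraries were both in Sgo1-/+. The mean was 143 ± 9.41 for WT against 93.2 ± 75.2 for Sgo1-/+ (SD, n = 3 each), and the log2 fold change was -0.62 (SE 0.524; unadjusted p = 0.277 in edgeR). It was -1.50 without Sgo1-/+ replicate 1 (unadjusted p = 0.00236, adjusted p = 0.9998 in edgeR). Without Sgo1-/+ replicate 2 it was -0.25 (unadjusted p = 0.581 in edgeR), and -0.41 without Sgo1-/+ replicate 3 (unadjusted p = 0.523 in edgeR).

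Aldh1a2, the retinaldehyde dehydrogenase that makes retinoic acid in the meninges, lies on chromosome 9 from 71215789 to 71296243 (ENSMUSG00000013584). It had 136, 142 and 119.7 normalized counts among WT, against 118, 36.5 and 61.4 among Sgo1-/+. Aldh1a2 was the 1 gene of the 10 whose groups did not overlap, by a margin of 119.7 in the lowest WT library against 118 in the highest Sgo1-/+ library. Of all tested genes, 6.81% had groups that did not overlap, 3.57% in this direction and 3.24% in the other. The mean was 133 ± 11.5 for WT against 72.0 ± 41.9 for Sgo1-/+ (SD, n = 3 each). Permuting the 6 libraries exactly (two-sided) gave p = 0.1, which 3 libraries against 3 cannot go below. The log2 fold change was -0.88 (SE 0.402; unadjusted p = 0.0658, adjusted p = 0.9999 in edgeR), and it ran from -1.43 without Sgo1-/+ replicate 1 to -0.57 without Sgo1-/+ replicate 2.

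Ogn makes osteoglycin, a small proteoglycan of collagen fibrils that meningeal fibroblasts express strongly. The gene lies on chromosome 13 from 49608071 to 49624500 (ENSMUSG00000021390), within Cenpp and without shared exon bases. Its normalized counts were 131, 86.7 and 133 among WT, against 140.1, 32.4 and 51.2 among Sgo1-/+. Again Sgo1-/+ replicate 1 was highest and the other two Sgo1-/+ libraries were lowest. The mean was 117 ± 26.1 for WT against 74.6 ± 57.5 for Sgo1-/+ (SD, n = 3 each), a log2 fold change of -0.65 (SE 0.523; unadjusted p = 0.258 in edgeR). Without Sgo1-/+ replicate 1 it was -1.48 (unadjusted p = 0.00544, adjusted p = 0.9998 in edgeR). It was -0.30 without Sgo1-/+ replicate 2 (unadjusted p = 0.547 in edgeR) and -0.44 without Sgo1-/+ replicate 3 (unadjusted p = 0.495 in edgeR).

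Levels of different genes were compared as normalized counts per kilobase (kb) of exon. On this scale the ratios between Ptgds, Slc6a13 and Aldh1a2 differed at most 1.76-fold from library to library. The Aldh1a2 level was between 0.848 and 1.26 times that of Slc6a13 in the 6 libraries. The Ptgds level was 99.6 to 166 times that of Slc6a13. In Sgo1-/+ replicate 2 the normalized counts of Ptgds, Slc6a13, Aldh1a2 and Ogn were 0.261 to 0.282 times the WT mean, and in Sgo1-/+ replicate 3 they were 0.368 to 0.463 times the WT mean.

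**Figure D1:**
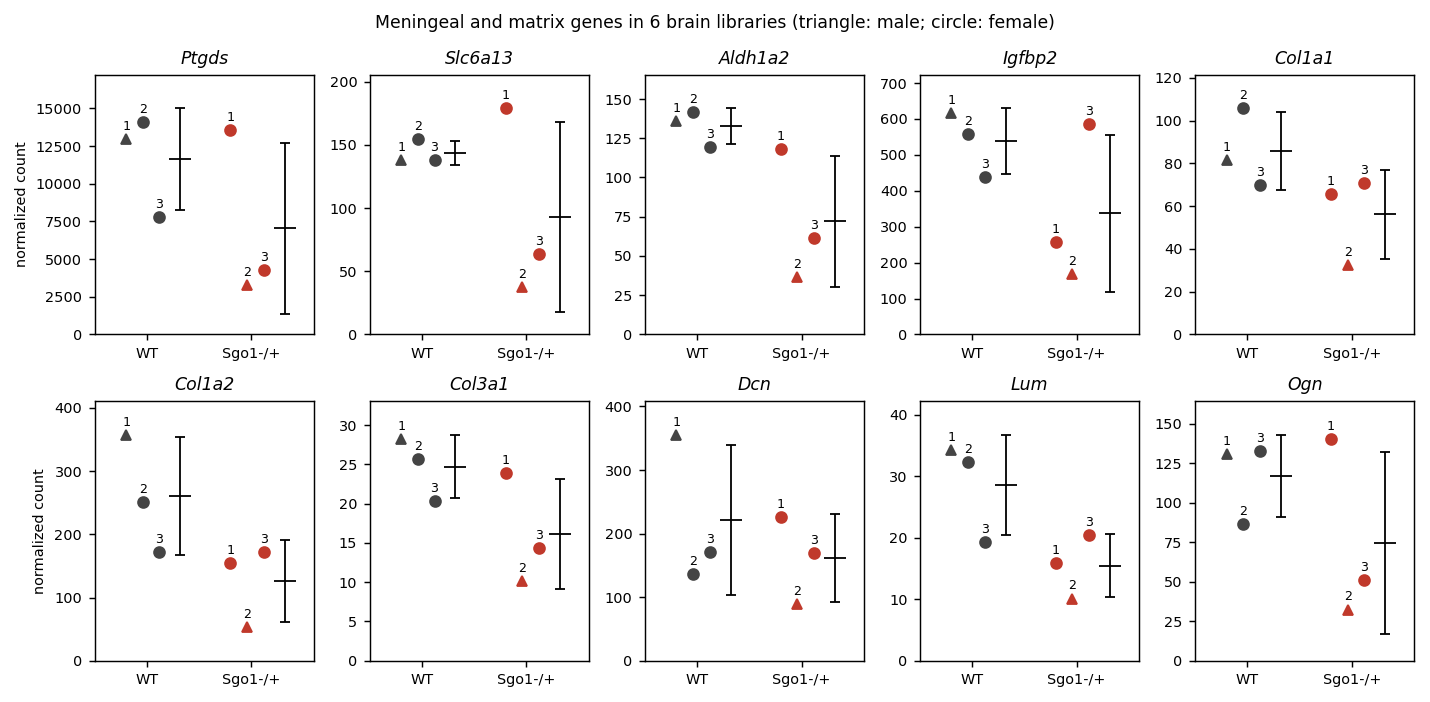
Normalized counts (vertical axes, each from 0) of the 10 genes in the 3 WT and 3 Sgo1-/+ libraries, 1 panel a gene, with replicate numbers beside the points, triangles for males, circles for females, and group means with SD as bars. Sgo1-/+ replicate 2 is the lowest point in all 10 panels, and Sgo1-/+ replicate 1 is the highest for Slc6a13 and Ogn.

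Col1a1 and Col1a2 encode the chains of collagen I, the main fibrillar collagen of connective tissue. Col1a1 lies on chromosome 11 from 94936224 to 94953042 (ENSMUSG00000001506) and Col1a2 on chromosome 6 from 4504814 to 4541543 (ENSMUSG00000029661). Col1a1 had 81.6, 106 and 70.0 normalized counts among WT, against 65.6, 32.4 and 70.6 among Sgo1-/+. For Col1a2 the values were 357, 251 and 171 among WT, against 155, 52.7 and 172 among Sgo1-/+. For both genes WT replicate 3 and Sgo1-/+ replicates 1 and 3 lay close together, with WT replicates 1 and 2 above them and Sgo1-/+ replicate 2 below.

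The mean of Col1a2 was 260.1 ± 93.3 for WT against 127 ± 64.5 for Sgo1-/+ (SD, n = 3 each), with a log2 fold change of -1.04 (SE 0.460; unadjusted p = 0.0589 in edgeR), the lowest of the 10 genes. That of Col1a1 was 85.8 ± 18.2 for WT against 56.2 ± 20.7 for Sgo1-/+ (SD, n = 3 each), with a log2 fold change of -0.61 (SE 0.338; unadjusted p = 0.115 in edgeR). The per-kb level of Col1a1 was 0.773 to 0.801 times that of Col1a2 in 4 libraries, 0.432 times in WT replicate 1 and 1.17 times in Sgo1-/+ replicate 2. The ratio thus departed from the others in the libraries where Col1a2 was highest and lowest. Without Sgo1-/+ replicate 2 the log2 fold change of Col1a2 was -0.68 and that of Col1a1 was -0.34.

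Col3a1 encodes collagen III, which forms mixed fibrils with collagen I (chromosome 1 from 45311538 to 45349706, ENSMUSG00000026043). It was the lowest of the 10 genes per kb, and 141 of its exon bases are shared with Gm47302, a same-strand gene that the table does not list. Its normalized counts were 28.2, 25.7 and 20.3 among WT, against 23.8, 10.1 and 14.3 among Sgo1-/+, where Sgo1-/+ replicate 1 lay within the WT range. The mean was 24.7 ± 4.04 for WT against 16.1 ± 7.03 for Sgo1-/+ (SD, n = 3 each), a log2 fold change of -0.61 (SE 0.390; unadjusted p = 0.160 in edgeR). It was -1.01 without Sgo1-/+ replicate 1 (unadjusted p = 0.0453, adjusted p = 0.9998 in edgeR). Without Sgo1-/+ replicate 2 it was -0.38 (unadjusted p = 0.386 in edgeR), and -0.54 without Sgo1-/+ replicate 3 (unadjusted p = 0.305 in edgeR). Over the 4 females it was -0.27.

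Dcn (decorin) and Lum (lumican) are small leucine-rich proteoglycans that regulate the width and spacing of collagen fibrils, and they neighbour each other on chromosome 10. Dcn spans 97479500 to 97518162 (ENSMUSG00000019929) and Lum 97565501 to 97572703 (ENSMUSG00000036446). The normalized counts of Dcn were 355, 136 and 170.4 among WT, against 227, 89.2 and 169 among Sgo1-/+. WT replicate 1 held the highest value, and the other libraries of both groups overlapped. The mean was 221 ± 118 for WT against 161 ± 69.0 for Sgo1-/+ (SD, n = 3 each). The log2 fold change of Dcn was -0.45 (SE 0.454; unadjusted p = 0.356 in edgeR), and it turned to 0.08 without WT replicate 1, the library with cerebellar and brain stem genes, and to 0.37 over the 4 females. It was -0.77 without Sgo1-/+ replicate 1 and -0.17 without Sgo1-/+ replicate 2.

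Lum had 34.2, 32.4 and 19.3 normalized counts among WT, against 15.9, 10.1 and 20.5 among Sgo1-/+. WT replicates 1 and 2 stood above the remaining 4 libraries. Its mean was 28.6 ± 8.16 for WT against 15.5 ± 5.18 for Sgo1-/+ (SD, n = 3 each), with a log2 fold change of -0.88 (SE 0.390; unadjusted p = 0.0587 in edgeR). The per-kb level of Lum was 0.167 to 0.289 times that of Dcn in 5 libraries and 0.567 times in WT replicate 2, so the neighbours did not keep a fixed proportion.

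Igfbp2 encodes a secreted binding protein of insulin-like growth factors, made by leptomeninges, choroid plexus and astrocytes. It lies on chromosome 1 from 72824503 to 72852474 (ENSMUSG00000039323). The normalized counts were 617, 558 and 437 among WT, against 257, 169 and 585 among Sgo1-/+. Here Sgo1-/+ replicate 3 lay among the WT libraries and Sgo1-/+ replicate 1 below them, the reverse of Ptgds, Slc6a13 and Ogn. The means were 538 ± 91.8 for WT against 337 ± 219 for Sgo1-/+ (SD, n = 3 each), and the log2 fold change was -0.67 (SE 0.430; unadjusted p = 0.162 in edgeR). It was -1.33 without Sgo1-/+ replicate 3 (unadjusted p = 0.00216, adjusted p = 0.9997 in edgeR). Without Sgo1-/+ replicate 1 it was -0.51 (unadjusted p = 0.351 in edgeR), and -0.36 without Sgo1-/+ replicate 2 (unadjusted p = 0.373 in edgeR). Over the 4 females it was -0.24. The Ptgds level per kb was 19.99 to 28.3 times that of Igfbp2 in 4 libraries, 59.0 times in Sgo1-/+ replicate 1 and 8.19 times in Sgo1-/+ replicate 3.

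In order of level, Ptgds was far above the others, with a mean of 5660.2 normalized counts per kb over the 6 libraries, followed by Igfbp2 with 237. The next 4 genes, Aldh1a2 (45.2), Slc6a13 (40.7), Ogn (37.3) and Dcn (32.7), had ranges that overlapped. Col1a2 (15.6) was below Dcn in 6 of 6 libraries although their ranges overlapped, and Col1a1 (10.8) and Lum (9.01) followed, each overlapping the range of the gene above it. Col3a1 was last with 2.08 per kb, below the other 9 in every library.

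Over the whole table, no gene (0%) had an adjusted p under 0.05 by edgeR's quasi-likelihood test, and 333 genes, 2.04% of 16337, had an unadjusted p under 0.05 (1.23% lower and 0.808% higher in Sgo1-/+). DESeq2's Wald test gave 3 adjusted calls, edgeR's likelihood ratio test 2 and limma 0, none of them among the 10 genes here. Of the 10 genes, all of which passed the filter on low counts, 0 had an unadjusted p under 0.05 in the quasi-likelihood test. The number was 2 with DESeq2's Wald test (Col1a2 and Aldh1a2, against 1.44% of all tested genes lower by that test), 3 with the likelihood ratio test (with Lum, against 1.54%) and 2 with limma on log2 counts (Aldh1a2 and Lum, against 1.48%). It was also 2 with limma on the authors' log2 values (1.46%) and without a filter on low counts (1.41%), 1 with a minimum of 10 counts (1.2%), with sex as a term (1.18%) or with the replicate number as a block (0.949%), and 0 with DESeq2 size factors (1.27%). The median log2 fold change over the 10 genes was -0.66, and over all tested genes it was -0.001. Exact permutation p, two-sided, lay between 0.1 for Aldh1a2 and 0.6 for Dcn. A log2 fold change below 0 was found for all 10 genes and for 50.2% of the genes tested.

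Which of the genes had an unadjusted p under 0.05 depended on which Sgo1-/+ library was left out. Without Sgo1-/+ replicate 1 they were 5, Slc6a13, Ptgds, Aldh1a2, Ogn and Col3a1, against 1.67% of all tested genes lower in that fit. Without Sgo1-/+ replicate 3 they were 3 others, Igfbp2, Col1a2 and Lum, against 0.853%. Without Sgo1-/+ replicate 2 there were 0 (0.731% of tested genes), and also 0 without WT replicate 1 (1.91%), without WT replicate 2 (1.45%) and over the 4 females (1.43%). Without WT replicate 3 there were 2, Col1a2 and Lum, against 3.06%. Groups did not overlap for 5 of the 10 genes without WT replicate 3 (24% of tested genes), without Sgo1-/+ replicate 1 (14.6%) and without Sgo1-/+ replicate 3 (14.9%), and for 1 of the 10 without WT replicate 1 (18%), WT replicate 2 (14.8%) or Sgo1-/+ replicate 2 (13%). Over the 4 females the log2 fold changes ran from -0.54 for Aldh1a2 to 0.37 for Dcn, with -0.37 for Col1a2 and -0.51 for Lum. The lowest adjusted p of any of the 10 genes over these fits and the other settings tried was 0.764 in edgeR or the other tools.

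The 3 Sgo1-/+ libraries were low in different genes, apart from replicate 2, which was low in all. In Sgo1-/+ replicate 2 all 10 genes lay below the lowest WT library, against 20.4% of tested genes, and the median of the 10 genes was -1.71 on the log2 scale relative to the WT mean. In Sgo1-/+ replicate 3 it was 5 genes (18.9% of tested genes; median -0.64) and in Sgo1-/+ replicate 1 also 5 genes (17.5%; median -0.10). Those of replicate 3 were Ptgds, Slc6a13, Aldh1a2, Ogn and Col3a1, and those of replicate 1 were Igfbp2, Lum, Col1a1, Col1a2 and Aldh1a2, so that 1 gene, Aldh1a2, was in both sets. Sgo1-/+ replicate 2 was the lowest of the 6 libraries for all 10 genes and for 14.1% of all tested genes. Sgo1-/+ replicates 2 and 3 were the lowest 2 libraries for 5 of the 10 (5.84% of tested genes). WT replicate 1 was highest for 5 of the 10, WT replicate 2 for 3 and Sgo1-/+ replicate 1 for 2. The males were thus at both ends, with WT replicate 1 highest for 5 genes and Sgo1-/+ replicate 2 lowest for all 10.

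**Figure D2:**
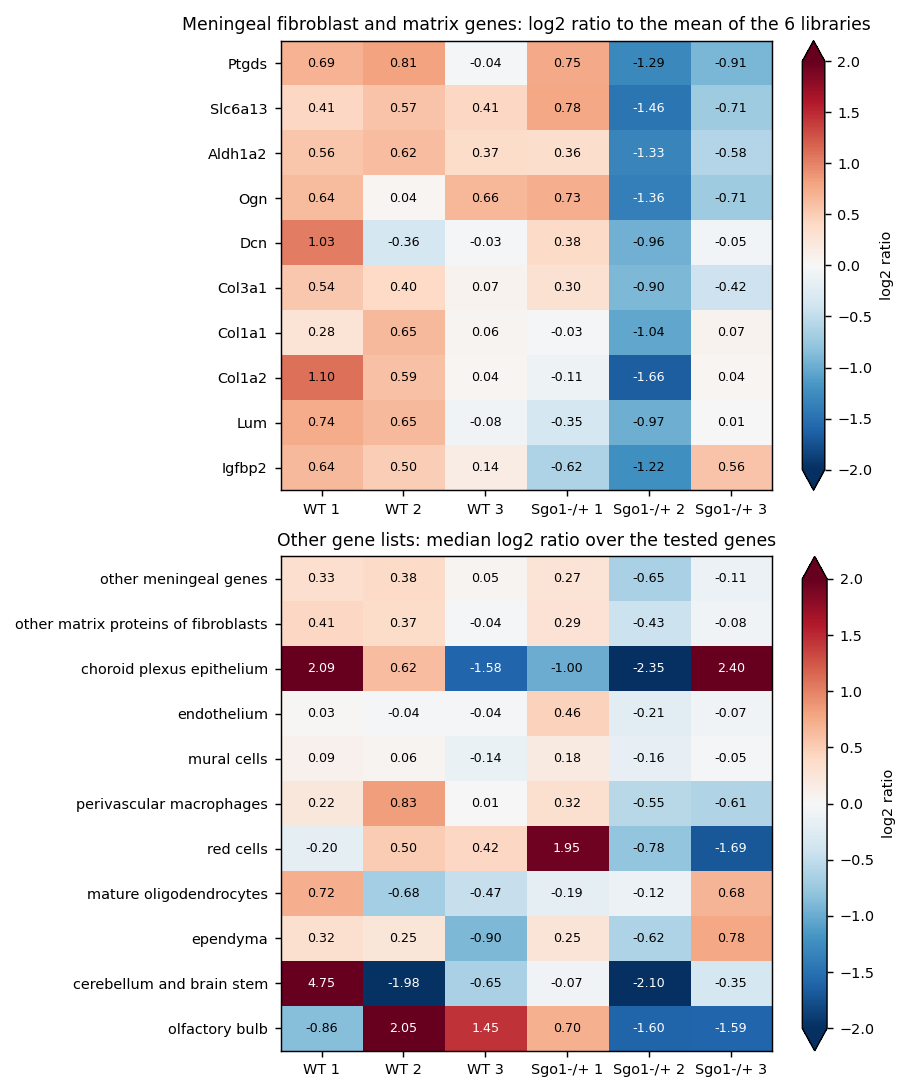
Log2 ratio of each library (columns) to the mean of the 6 libraries, for the 10 genes (upper rows) and as the median over the tested genes of other lists (lower rows), with colours cut at 2 and the value printed in each cell. The column of Sgo1-/+ replicate 2 is negative for all 10 genes, between -0.90 and -1.66, while Sgo1-/+ replicate 1 runs from 0.78 for Slc6a13 to -0.62 for Igfbp2.

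Markers of some other cell types also varied between libraries, only in part in the order of the 10 genes. The summed level of 16 choroid plexus genes was 2694, 1103 and 362 CPM among WT, against 457, 299 and 3209 CPM among Sgo1-/+, with Ttr as the highest gene and no gene at 0 in every library. Choroid plexus genes and Igfbp2 were both high in WT replicates 1 and 2 and Sgo1-/+ replicate 3 and both lowest in Sgo1-/+ replicate 2. Ptgds, which choroid plexus also makes, was likewise high in WT replicates 1 and 2 and lowest in Sgo1-/+ replicate 2. However, it had 4281 normalized counts in Sgo1-/+ replicate 3, where choroid plexus genes were highest, and 13543 in Sgo1-/+ replicate 1. The part of the choroid plexus in the results of Igfbp2 and Ptgds was not tested. Red cell genes summed to 333 to 527 CPM in WT and to 1412, 214 and 115 CPM among Sgo1-/+, and Sgo1-/+ replicate 1 was also high for Ptgds, Slc6a13 and Ogn. All 5 red cell genes had a positive log2 fold change, with a median of 0.37, and 4 had Sgo1-/+ replicates 2 and 3 lowest. Perivascular macrophage genes summed to 27.9, 43.5 and 33.8 CPM among WT, against 38.1, 25.9 and 26.7 CPM among Sgo1-/+, so that Sgo1-/+ replicates 2 and 3 were the lowest libraries, as for Ptgds, Slc6a13 and Ogn. Of the 6 tested genes of this list, 5 had a negative log2 fold change, the median was -0.58, and 4 had Sgo1-/+ replicates 2 and 3 lowest. Olfactory bulb genes summed to 115, 458 and 396 CPM among WT, against 304, 201 and 141 CPM among Sgo1-/+. All 10 of them had a negative log2 fold change, with a median of -1.60, and 5 had Sgo1-/+ replicates 2 and 3 lowest. WT replicate 1, the highest library for 5 of the meningeal genes, had the lowest sum when Synpr, the highest gene, was included. Without Synpr the sums were 59.8, 247 and 180 CPM among WT, against 119, 35.7 and 19.1 CPM among Sgo1-/+. Sgo1-/+ replicates 2 and 3 were then the lowest libraries. The part of these cells and regions, and of how much meninges each piece of tissue held, was not tested.

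The endothelial and mural cell lists varied less, and the oligodendrocyte and ependymal lists in another order. Endothelial genes summed to 471, 534 and 446 CPM among WT, against 665, 418 and 468 CPM among Sgo1-/+, with Slc2a1 highest. Mural cell genes summed to 153 to 178 CPM in WT and 173, 147 and 176 CPM among Sgo1-/+, with Rgs5 highest. Both sums were lowest in Sgo1-/+ replicate 2, as were the meningeal genes followed here, but by less. The mural sum was 147 CPM there against 153 CPM in WT replicate 2, and the endothelial sum 418 against 446 CPM in WT replicate 3. The 10 genes lay at 0.203 to 0.410 times the WT mean in Sgo1-/+ replicate 2. Of the 11 tested mural genes, 6 had a negative and 5 a positive log2 fold change. The median log2 ratio of endothelial genes to the mean of the 6 libraries was 0.46, -0.21 and -0.07 among Sgo1-/+. It was -0.04 to 0.03 in WT. By this median Sgo1-/+ replicate 1 was highest and replicates 2 and 3 lowest, as for Slc6a13 and Ogn. By the sum, Sgo1-/+ replicate 3 lay within the WT range. Of the 14 tested endothelial genes, 3 had a negative and 11 a positive log2 fold change, with a median of 0.14. Only 2 of them had Sgo1-/+ replicates 2 and 3 lowest. The part of vascular cells was not tested. Mature oligodendrocyte genes, of which Mbp was highest, summed to 12206, 4744 and 5124 CPM among WT, against 6848, 6679 and 11612 CPM among Sgo1-/+. Ptgds, which oligodendrocytes also express, was low in Sgo1-/+ replicate 3 where these genes were high. In WT replicate 1, where these genes were highest, Ptgds was high, with 12973 normalized counts. The part of oligodendrocytes in the Ptgds values was not tested. Ependymal genes summed to at most 44.0 CPM in WT and 22.7 to 57.6 CPM in Sgo1-/+, with Foxj1 highest.

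**Figure D3:**
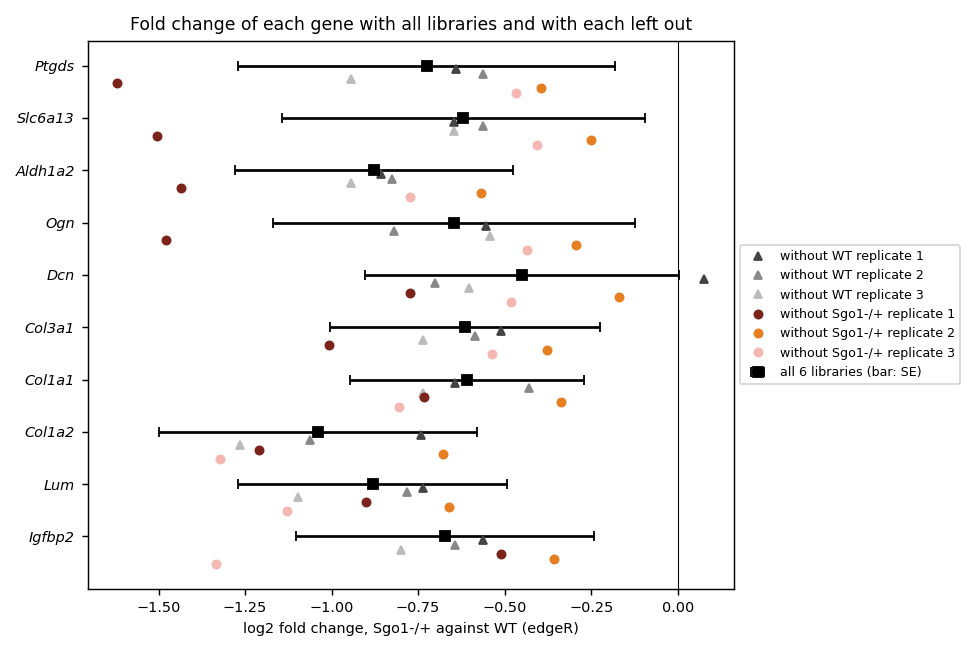
Log2 fold change of Sgo1-/+ against WT (horizontal axis, edgeR) for each of the 10 genes, as squares with SE bars for all 6 libraries and as triangles and circles for fits without 1 WT or 1 Sgo1-/+ library. Without Sgo1-/+ replicate 1, Ptgds, Slc6a13, Aldh1a2 and Ogn lie between -1.62 and -1.43, and the value above 0 is Dcn without WT replicate 1.

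Among 40 further genes named for the meninges, 34 were tested, of which 27 had a negative and 7 a positive log2 fold change, with a median of -0.34. Tbx18, Slc22a6 and Slc6a20a, 3 of the 34, had an unadjusted p under 0.05, all lower in Sgo1-/+, against 1.23% of all tested genes in that direction. None passed after adjustment (adjusted p = 0.9999 in edgeR). Tbx18, a transcription factor of meningeal and mural precursors, had 34.2, 33.3 and 28.4 normalized counts among WT, against 11.9, 14.2 and 14.3 among Sgo1-/+. Its log2 fold change was -1.24 (SE 0.277, unadjusted p = 0.00301 in edgeR). Its groups did not overlap, which held for 4 of the 34 and for 3.57% of all tested genes in this direction. Slc22a6, an organic anion transporter of the arachnoid barrier, had 65.5, 88.6 and 77.1 normalized counts among WT, against 49.7, 26.3 and 30.7 among Sgo1-/+. Its log2 fold change was -1.11 (SE 0.304; unadjusted p = 0.00831 in edgeR), and -0.94 without Sgo1-/+ replicate 2. Slc6a20a, an amino acid transporter, had overlapping groups and a log2 fold change of -0.65 (SE 0.266; unadjusted p = 0.0458 in edgeR).

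The other fibrillar and associated collagens were divided in direction. Of 14 listed, 13 were tested, 7 had a negative and 6 a positive log2 fold change, the median was -0.10, and 0 had an unadjusted p under 0.05. The highest of them, Col6a1, had a log2 fold change of 0.02 (SE 0.673), with 135, 1186 and 605 normalized counts among WT, against 806, 733 and 413 among Sgo1-/+, and its sign turned in 5 of the fits that left out libraries. Of 9 other small leucine-rich proteoglycans, 7 were tested and 4 were negative, with a median of -0.28. Prelp, which binds collagen to basement membranes, had a higher mean in Sgo1-/+, with 212 ± 59.3 for WT against 336 ± 57.8 for Sgo1-/+ (SD, n = 3 each). Its log2 fold change was 0.67 (SE 0.231; unadjusted p = 0.0239 in edgeR), and its groups overlapped. Over the 4 females it was 1.04.

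For other matrix proteins of fibroblasts, 22 of 24 were tested, 13 were negative and 9 positive, and the median was -0.21. Fbln1 (fibulin 1) had 119 ± 18.6 normalized counts for WT against 69.6 ± 14.4 for Sgo1-/+ (SD, n = 3 each), a log2 fold change of -0.78 (SE 0.232; unadjusted p = 0.0127 in edgeR). Thbs2 (thrombospondin 2), whose log2 fold change over the 4 females was -0.38, had 185 ± 41.3 for WT against 103 ± 38.2 for Sgo1-/+ (SD, n = 3 each), a log2 fold change of -0.85 (SE 0.325; unadjusted p = 0.0352 in edgeR). The groups of both genes did not overlap, which held for 2 of the 22 tested and for 3.57% of all tested genes in this direction. Of 24 enzymes and chaperones of collagen processing, 22 were tested, 13 were negative, and the median was -0.07. Mmp14, a membrane-bound collagenase, had a log2 fold change of -0.69 (SE 0.291; unadjusted p = 0.0488 in edgeR).

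Lists named for pathways in which single members act gave medians near 0. Of 19 retinoic acid genes, which did not include Aldh1a2, 17 were tested, 8 negative and 9 positive, with a median of 0.09. Crabp2, a retinoic acid binding protein also present in meninges, had 56.4, 40.0 and 28.4 normalized counts among WT, against 25.8, 6.08 and 4.09 among Sgo1-/+, a log2 fold change of -1.78 (SE 0.670; unadjusted p = 0.0333 in edgeR), which was -2.999 without Sgo1-/+ replicate 1. Of 15 genes of the insulin-like growth factor system, 13 were tested with 0 past an unadjusted p of 0.05 and a median of -0.001, and the highest, Igfbp5, had -0.09 (SE 0.239). The list named for the prostaglandin D2 pathway also held the prostaglandin E synthase genes Ptges, Ptges2 and Ptges3. It had 11 tested genes, a median of 0.08 and 0 past an unadjusted p of 0.05. Ptges3, the highest gene of that list, had -0.05 (SE 0.123).

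**Figure D4:**
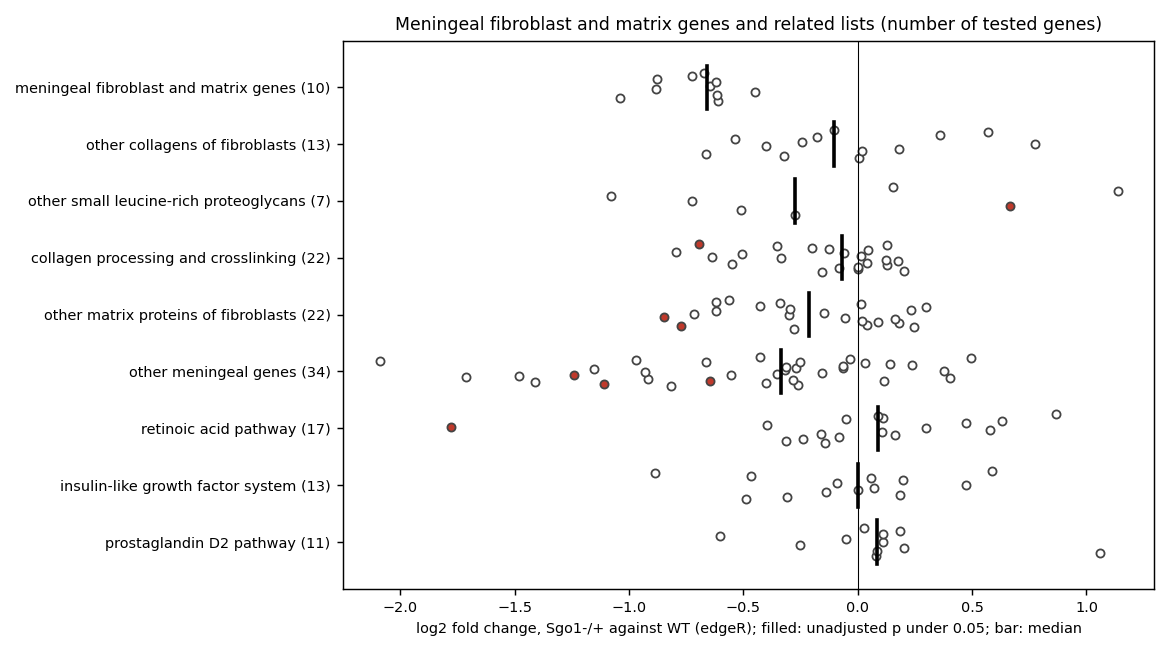
Log2 fold change of Sgo1-/+ against WT (horizontal axis, edgeR) of each tested gene of the 10 genes and of 8 related lists (rows, number of tested genes in brackets), filled where the unadjusted p was under 0.05, with a bar at the median. The 10 genes lie between -1.04 and -0.45 with none filled, while the medians of the other lists lie between -0.34 and 0.09.

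The genes whose profiles were most like the mean profile of the 10 genes were ranked over all tested genes, by the root mean square difference between log2 CPM values centred on each gene's mean over the 6 libraries. The 8 nearest were Kcnh8 (0.104), CT030259.1 (0.113), B330016D10Rik (0.134), Nid1 (0.137), Cks1b (0.153), Thbs2 (0.183), Slc12a7 (0.196) and Gm11847 (0.197). Nid1, a basement membrane protein, and Thbs2 belong to the list of fibroblast matrix proteins, and the other 6 were in no list. Measured against the mean of the other 9, Col3a1 (0.180) and Aldh1a2 (0.210) were nearest and Igfbp2 (0.537) was farthest. Among tested genes outside the 10, 5 lay at least as close to the mean profile as Col3a1 and 11 as Aldh1a2. The number was 482 for Dcn and 1790 for Igfbp2, so the profile was not particular to the 10 genes.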

How the data were processed

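Total RNA of 6 mouse cerebrum samples was sequenced (MiSeq, TruSeq V2 libraries). The authors used Strand NGS to align reads to mm10 and deposited an estimated count per Ensembl gene and library, without normalization; the counter's settings, its use of strand and the Ensembl release are not given in the sources used here. GEO's processing notes also name BWA and edgeR. The authors deposited log2 values as well, made by DESeq normalization, with each gene's median subtracted, used here only in an alternative, and fold changes of their own, not used here. The column names hold a brain number and a replicate number but no genotype. Brains 1 to 3 were taken as WT and brains 4 to 6 as Sgo1-/+, an assignment given for this work that the column names do not state by themselves, and with it Xist and Ddx3y levels matched the labelled sex in 6 of 6 libraries.

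The 10 genes and all lists were chosen with earlier results of these data known, and 1 planned list is not reported here. Estimated counts were rounded and fitted with edgeR 4.0.16 (TMM, default filter on low counts, 16337 of 38087 genes tested, quasi-likelihood test, no covariate, Benjamini-Hochberg adjustment, threshold 0.05). The SE is the log2 fold change divided by the square root of F. For single genes, the 20 ways of grouping the libraries 3 against 3 gave an exact permutation p (two-sided). Log2 CPM used 0.5 added counts. Exon lengths came from GENCODE M21 (36308 gene IDs found). A count of 0 allows up to 3 counts, and intervals and limits of this kind cover counting error only. The genes named from related lists were those with an unadjusted p under 0.05 (at most 3 a direction), or else the gene with the highest mean, and the 8 nearest profiles. The tests were run first on simulated counts of 16142 genes, of which 200 were changed 4-fold. Alternatives were DESeq2 1.42.0, edgeR's likelihood ratio test, limma 3.58.1 on DESeq-normalized counts (log2, with 1 added), scaling by DESeq2 size factors, all genes kept, a minimum of 10 counts per library, a term for sex, a block for the replicate number, females alone, and each library left out in turn; limma on the authors' deposited log2 values was chosen after seeing the data.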

Additional observations from a re-analysis of the deposited data

How the results depend on the processing

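The log2 fold change was negative in 158 of the 160 combinations of the 10 genes with an alternative, and that of Dcn turned positive over females only (0.37) and without WT replicate 1 (0.076). By each of these tests 0 of the 10 genes passed an adjusted p of 0.05. Their median lay between -1.11 (without Sgo1-/+ replicate 1) and -0.28 (females only). The number of the 10 genes with an unadjusted p under 0.05, 0 as reported, was 2 with DESeq2 (1.44% of all tested genes lower at this threshold), 3 with the likelihood ratio test (1.54%), 2 with limma on DESeq-normalized counts (1.48%), on the authors' values (1.46%) or without a filter on low counts (1.41%), and 1 with a minimum of 10 counts (1.2%), sex as a term (1.18%) or the replicate block (0.949%). It ranged from 0 to 5 when 1 library was left out. Genes of the whole table past the adjusted threshold were 3 with DESeq2, which gave 27 genes no adjusted p, 2 with the likelihood ratio test, 1 over females only, and 0 to 1 with 1 library left out. The genes whose groups did not overlap, 1 of 10 as reported, were 1 to 5 with 1 library left out, where 13 to 24% of all tested genes did not overlap, since 2 libraries against 3 separate more often. The cause of these shifts was not tested.

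Same-numbered libraries of both groups correlated at -0.146, 0.0140 and -0.207 in their deviations from the group means. Pairs with different numbers correlated at -0.229 to 0.295. With 3 libraries a group, these values cannot show whether the mice were paired. With the replicate number as a block, the median of the 10 genes was -0.88.

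Signs of other named genes also turned. Over females only, Col6a1 was -0.56 and Ptges3 0.0096. With 1 library left out, Col6a1 ranged from -0.46 to 0.81 (-0.46 without WT replicate 1, -0.02 without WT replicate 3, -0.16 without Sgo1-/+ replicate 1, -0.08 without Sgo1-/+ replicate 2), Ptges3 from -0.12 to 0.050, Igfbp5 from -0.37 to 0.081, and Dcn from -0.77 to 0.076.

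Depth limits the low genes most, since Col3a1 and Lum rest on few counts per library, and 3 libraries a group allow no permutation p below 0.1. Run and genotype cannot be told apart.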
